A study of Homo sapiens with 8 samples.

Results

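The signalling lymphocytic activation molecule (SLAM) family and its SAP adaptors were followed across 4 transfections of Reh cells. Reh is a human cell line of B-cell precursors that grew out of an acute lymphoblastic leukemia. The set held 10 genes: the receptors SLAMF1, SLAMF6, SLAMF7, SLAMF8, CD48, LY9, CD84 and CD244, and the adaptors SH2D1A (SAP) and SH2D1B (EAT-2). Its members were every probe set annotated with one of these symbols alone, 30 of the 54675 probe sets of the array. The family was chosen from genes whose levels on these same 8 arrays were already known, so its levels and the differences between groups are a description. No p-value is given for a member, and the counts of members called in fits over all probe sets stand only beside the share of all probe sets called.

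The 8 Affymetrix U133 Plus 2.0 arrays fell into 4 groups of 2, which the labels call biological duplicates. One group, titled mock, had received a control shRNA and one an shRNA that targets CBFA2T3. One had received IKKβ(EE), a mutant of IκB kinase β that is always active, and the last had received both constructs. The labels describe knockdown and kinase expression as transient, and all 4 groups are Reh cells. The sources used here do not give the vectors and their promoters, the time after transfection, the share of cells transfected or whether IKKβ(EE) cells also carried a control shRNA. All levels below are log2 intensities made by the authors with RMA.

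SLAM receptors are immunoglobulin-like proteins of blood cells, and most of them bind the same receptor on a neighbouring cell. CD48, which is anchored in the membrane by a lipid, binds CD244 instead. Tyrosine motifs in the tails of several members recruit SAP or EAT-2, and SAP in turn brings in the kinase FYN. Without the adaptors the same motifs can bind inhibitory phosphatases such as SHP-1 and SHIP-1. In B-lineage cells CD48 is broadly expressed, SLAMF1 is a marker of activation, while SLAMF7 is best known from plasma cells and natural killer cells.

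The genes of 7 of the receptors, all but SLAMF8, lie close together on chromosome 1. In the RefSeq gene order of GRCh38.p14 the run is SLAMF6, CD84, SLAMF1, CD48, SLAMF7, LY9 and CD244, 7 of the 13 annotated genes in that span, and the other 6 had no probe set here. Promoter sequence was available in the RefSeq table (GRCh38.p14) for 7 of the 10 members. SLAMF7, LY9 and CD84 had no entry. The 250 bases before the transcription start are shown for SLAMF1 and CD48, the members with an entry that were bright enough to be compared, and for SLAMF8, which held a κB match. Capitals mark matches on either strand to the κB consensus, the motif bound by NF-κB, and to the RUNX core TGTGGT.

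SLAMF1, chr1:160647045-160647294, minus strand: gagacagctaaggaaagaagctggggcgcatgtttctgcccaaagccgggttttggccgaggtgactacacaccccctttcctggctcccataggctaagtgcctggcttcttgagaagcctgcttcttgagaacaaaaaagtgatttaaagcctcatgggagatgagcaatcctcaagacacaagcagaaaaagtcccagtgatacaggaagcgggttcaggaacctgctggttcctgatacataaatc
CD48, chr1:160711823-160712072, minus strand: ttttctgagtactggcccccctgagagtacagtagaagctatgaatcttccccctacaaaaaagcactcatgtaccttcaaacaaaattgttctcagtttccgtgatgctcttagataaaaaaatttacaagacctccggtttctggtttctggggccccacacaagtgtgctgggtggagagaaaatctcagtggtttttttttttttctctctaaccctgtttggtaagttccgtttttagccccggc
SLAMF8, chr1:159826623-159826872, plus strand: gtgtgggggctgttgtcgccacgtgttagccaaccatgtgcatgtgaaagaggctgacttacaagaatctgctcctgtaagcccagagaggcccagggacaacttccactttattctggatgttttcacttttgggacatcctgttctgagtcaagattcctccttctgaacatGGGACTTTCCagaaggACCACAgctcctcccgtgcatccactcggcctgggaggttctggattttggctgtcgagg

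The windows searched ran from 250 bases before to 50 after the start. The κB consensus was found in 1 of the 7 member promoters, that of SLAMF8, and in 7.72% of 35093 promoters of the same length. The RUNX core was found in the same member alone, close beside the κB match, and in 13.1% of all promoters. Neither the interferon-stimulated response element core GAAANNGAAA (3.58% of all promoters) nor TATAAA (11.5%) was found in any of the 7. These matches are letters in a window, and an absent match says nothing about sites elsewhere.

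The targeted genes were examined on every array first. CBFA2T3, a transcriptional corepressor of the ETO family, stood at 9.22 and 9.29 with the control shRNA, 8.40 and 8.11 with its own shRNA, 8.91 and 8.89 with IKKβ(EE), and 8.23 and 7.83 with both. Of the IKBKB probe sets, 209341_s_at lay at 8.47 to 9.18 on all 8 arrays, while 211027_s_at stood at 4.43 or lower on the 4 without IKKβ(EE). The latter stood at 10.85 and 10.39 with IKKβ(EE) alone and at 11.45 and 11.97 with both. It was thus higher with both than with the kinase alone (log2 difference 1.09, SE of the fit 0.30). Comparisons of both with IKKβ(EE) alone, and the interactions, therefore hold unequal levels of this transcript. Whether this had a part in the levels of the members was not tested. Both targets thus separated the arrays by label, but CBFA2T3 was also lower with IKKβ(EE) alone than with the control shRNA (log2 difference -0.36, SE 0.16). With its own shRNA the difference was -0.999 (SE 0.16, limma adjusted p = 0.0518, or 0.0100 with the replicate number as a block). B-precursor markers were high throughout, with PAX5 at 12.09 to 12.31 and DNTT at 13.10 to 13.76, while VPREB1 (2.93 to 3.49) lay near background. Arrays correlated at 0.937 to 0.991 over tested probe sets.

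A probe set entered the fits if it reached log2 5 on at least 2 arrays, which 24481 did. Of the 30 member probe sets 5 passed, 1 each for SLAMF7, SLAMF1, CD48, LY9 and CD84. SLAMF7 passed through the 2 arrays with both transfections only, so its difference from the other groups was built into that filter. The other 25 probe sets, including every one for SLAMF6, SLAMF8, CD244, SH2D1A and SH2D1B, are described by their levels.

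**Figure D1:**
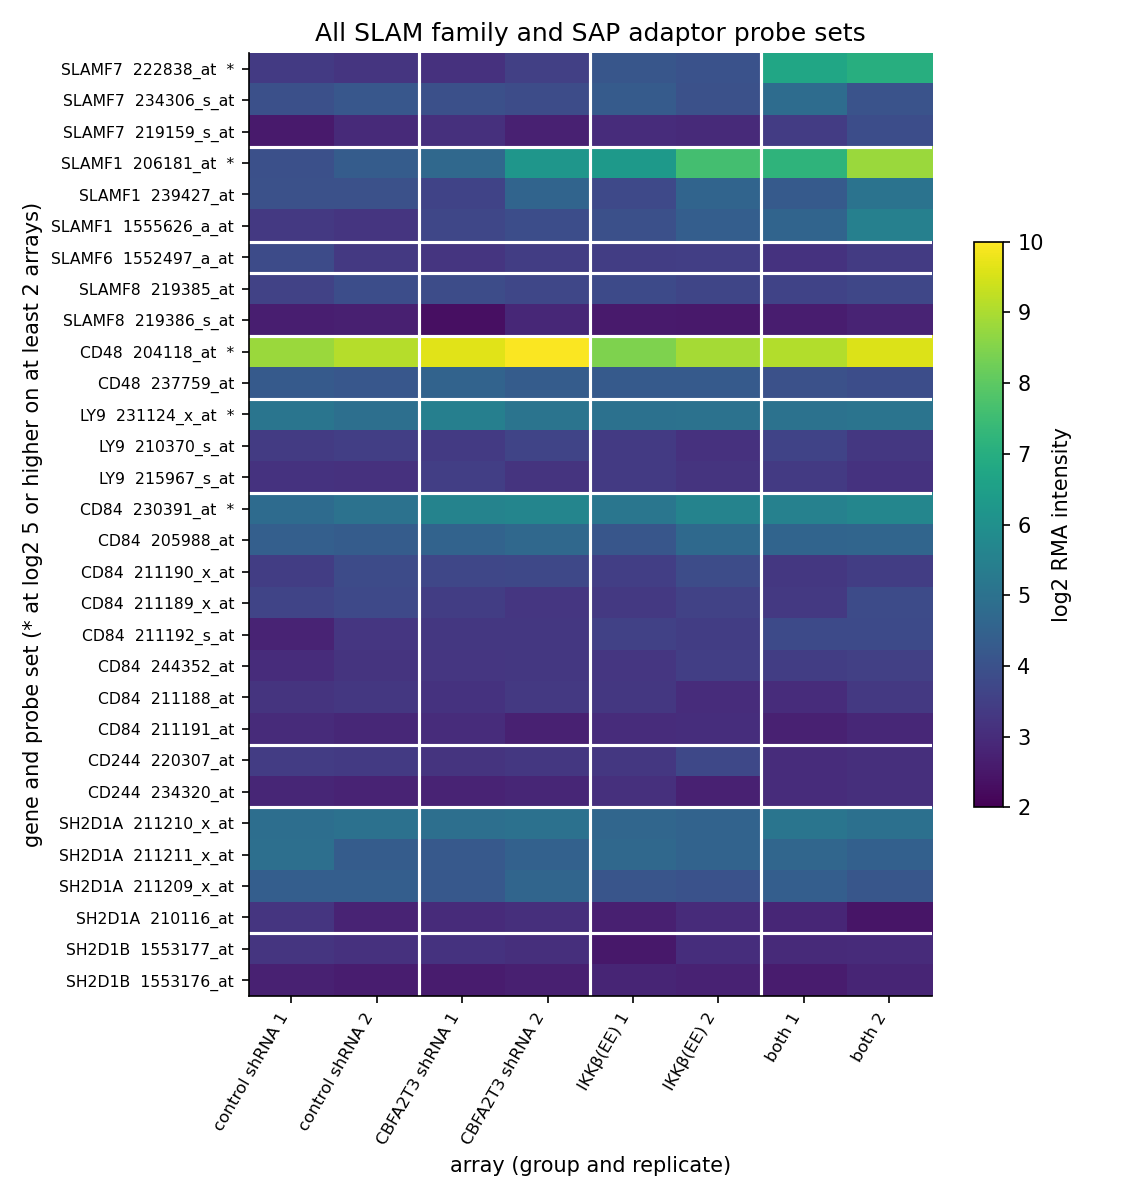
Log2 RMA intensity (colour) of the 30 member probe sets (rows, grouped by gene) on the 8 arrays (columns, group and replicate); an asterisk marks the 5 probe sets at log2 5 or higher on at least 2 arrays. CD48 204118_at is bright on all arrays, SLAMF1 206181_at brightens from control to both transfections, SLAMF7 222838_at is bright only on the 2 arrays with both, and most other rows stay dark.

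SLAMF7, a receptor that signals through EAT-2 in natural killer cells and is a surface marker of plasma cells, was high only when both constructs were present. Its probe set 222838_at stood at 3.35 and 3.23 with the control shRNA, 3.15 and 3.51 with the CBFA2T3 shRNA, 4.16 and 4.01 with IKKβ(EE), and 6.74 and 7.02 with both. The control and CBFA2T3 shRNA arrays overlapped, the IKKβ(EE) arrays lay above them, and the arrays with both lay well above all others. The level with both was 12.1-fold that of control (log2 difference 3.59 ± 0.16, SE of the fit), 6.94-fold that of IKKβ(EE) alone (2.80 ± 0.16) and 11.7-fold that of the CBFA2T3 shRNA alone (3.55 ± 0.16).

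The single effects on SLAMF7 were small beside this. The difference from control was 0.04 ± 0.16 with the CBFA2T3 shRNA and 0.80 ± 0.16 with IKKβ(EE). The interaction asks how far the effect of both constructs goes past the 2 single effects added up, and it was 2.76 ± 0.23 on the log2 scale. It was alike within both replicate numbers, 2.78 from the arrays numbered 1 and 2.73 from those numbered 2. The mean was under log2 5 in 3 of the 4 groups, so the folds compare a measured level with levels near background. The single effects compare levels near background with each other and may be compressed, and the size of the interaction, which is built from them, is uncertain for the same reason.

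The 2 other SLAMF7 probe sets were dim. On 219159_s_at the arrays with both stood at 3.41 and 3.89, above the range of 2.59 to 3.09 on the other 6 arrays. On 234306_s_at the groups overlapped, with 4.82 and 4.04 for both and 3.86 to 4.29 elsewhere. The direction on the bright probe set was therefore seen again on 1 of the 2 dim ones, under the floor.

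SLAMF1, the self-binding receptor CD150 of activated lymphocytes, differed between groups in graded steps. Its probe set 206181_at stood at 3.97 and 4.32 with the control shRNA, 4.70 and 6.21 with the CBFA2T3 shRNA, 6.32 and 7.61 with IKKβ(EE), and 7.21 and 8.80 with both. The first 3 groups in that order did not overlap one another, while the arrays with IKKβ(EE) and with both did. Against control the level was 2.47-fold with the CBFA2T3 shRNA (log2 difference 1.31 ± 0.67), 7.03-fold with IKKβ(EE) (2.81 ± 0.67) and 14.5-fold with both (3.86 ± 0.67). Both control arrays and the first CBFA2T3 shRNA array lay under log2 5, near background. The folds over control may thus be compressed, and the interaction given below is uncertain for the same reason.

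On the log2 scale the effect of both on SLAMF1 was close to the sum of the single effects, with an interaction of -0.26 ± 0.95 (SE 0.39 with the replicate number as a block). It was 0.17 among arrays numbered 1 and -0.69 among those numbered 2. The arrays numbered 2 were higher than those numbered 1 in all 4 groups, by 0.36 with the control shRNA and by 1.51, 1.29 and 1.59 in the other groups. Within a replicate number the order of the 4 groups was the same both times, and the difference of both from control was 3.24 among arrays numbered 1 and 4.47 among those numbered 2. The dimmer SLAMF1 probe set 1555626_a_at showed the same order, at 3.33 and 3.22, 3.71 and 3.90, 3.95 and 4.38, then 4.56 and 5.50. On the third, 239427_at, levels lay between 3.62 and 5.04, and the arrays with both (4.25 and 5.04) overlapped those of either construct alone.

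**Figure D2:**
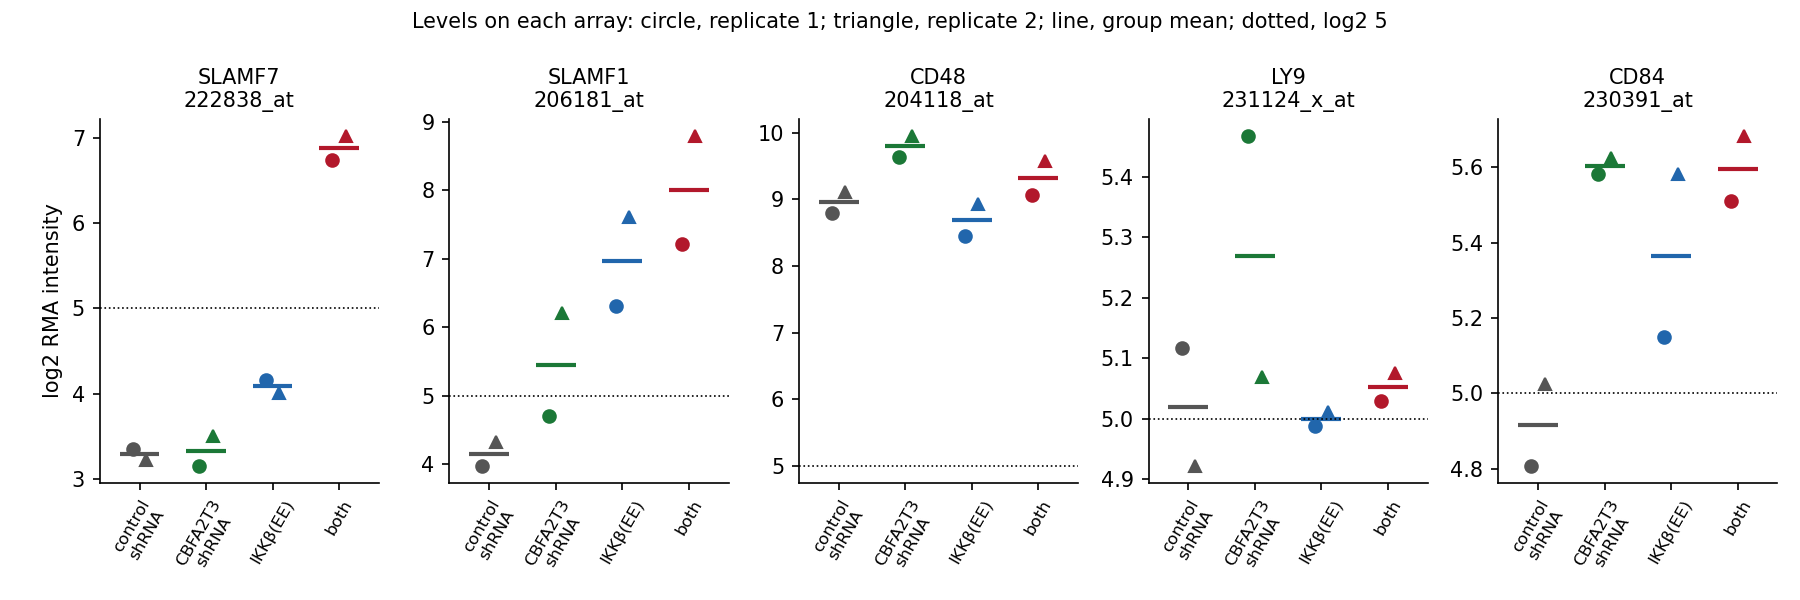
Log2 RMA intensity of the 5 member probe sets past the floor, 1 panel each with its own vertical scale, by group on the horizontal axis; circles are replicate 1, triangles replicate 2, lines group means, and the dotted line is log2 5. SLAMF7 is near 3 to 4 except with both transfections (6.74 and 7.02), SLAMF1 climbs through the groups to 8.80, and CD48 is highest with the CBFA2T3 shRNA (9.64 and 9.95).

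CD48, the lipid-anchored ligand of CD244, was bright on all 8 arrays and had a different order of groups. Its probe set 204118_at stood at 8.80 and 9.11 with the control shRNA, 9.64 and 9.95 with the CBFA2T3 shRNA, 8.45 and 8.94 with IKKβ(EE), and 9.07 and 9.58 with both. The CBFA2T3 shRNA arrays lay above all others, and the remaining neighbours in the order overlapped. The difference from control was 0.84 ± 0.24 with the CBFA2T3 shRNA (1.79-fold) and -0.26 ± 0.24 with IKKβ(EE). With both it was 0.37 ± 0.24, the level being 0.63 ± 0.24 above IKKβ(EE) alone (1.55-fold) and below the CBFA2T3 shRNA alone (log2 difference -0.48 ± 0.24).

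The CD48 differences had the same direction within both replicate numbers. The CBFA2T3 shRNA array was 0.84 above control in both pairs, the IKKβ(EE) array differed from control by -0.34 (number 1) and -0.18 (number 2), and the array with both was 0.61 and 0.64 above IKKβ(EE) alone. On this probe set the level was higher with the shRNA both without and with IKKβ(EE), and the interaction was -0.21 ± 0.34. The second CD48 probe set, 237759_at, stayed under log2 5 on all arrays and did not show the same order. It was higher than control with the CBFA2T3 shRNA (log2 difference 0.22), but the arrays with both, at 3.98 and 3.90, were lower than all others, with a difference of -0.33 from IKKβ(EE) alone.

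CD84, a self-binding receptor of B cells and platelets, was near the floor and was higher in the other 3 groups than with the control shRNA. On 230391_at it stood at 4.81 and 5.03 with the control shRNA, 5.58 and 5.63 with the CBFA2T3 shRNA, 5.15 and 5.58 with IKKβ(EE), and 5.51 and 5.68 with both. All 6 of the latter arrays lay above the control arrays and the 3 groups overlapped one another in part. The difference from control was 0.69 ± 0.17 with the CBFA2T3 shRNA and 0.45 ± 0.17 with IKKβ(EE). With both it was 0.68 ± 0.17, and the interaction was -0.46 ± 0.24. The other 7 CD84 probe sets lay between 2.72 and 4.73. Among them 211192_s_at had non-overlapping groups from 2.79 and 3.25 in control, through 3.30 with the CBFA2T3 shRNA and 3.54 and 3.44 with IKKβ(EE), to 3.80 on each array with both. On 211189_x_at the direction was the opposite, with differences from control of -0.35 with the CBFA2T3 shRNA and -0.26 with IKKβ(EE), and the dim probe sets thus disagreed.

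LY9, the self-binding receptor CD229, showed no clear order. Its probe set 231124_x_at lay between 4.92 and 5.47 on all 8 arrays, and no pair of neighbours in the order of group means was apart. The largest difference from control was 0.25 ± 0.15, with the CBFA2T3 shRNA. The suffix _x_at marks probes that may also bind other transcripts. The 2 other LY9 probe sets lay between 3.13 and 3.65.

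The remaining receptors and both adaptors lay near background in every group. SLAMF6 had 1 probe set, at 3.18 to 3.82. SLAMF8, a receptor of myeloid cells, had 2 at 2.33 to 3.89. Whether the κB match in its promoter window, printed above, has a function here was not tested. CD244, the CD48 receptor of natural killer cells, had 2 at 2.74 to 3.74. SH2D1B had 2 at 2.51 to 3.23. SH2D1A had 4, at 2.46 to 5.10, and its 3 brighter ones carry the _x_at suffix and included only 1 array at log2 5 or higher. Without detection calls these levels cannot show whether a transcript was absent.

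**Figure D3:**
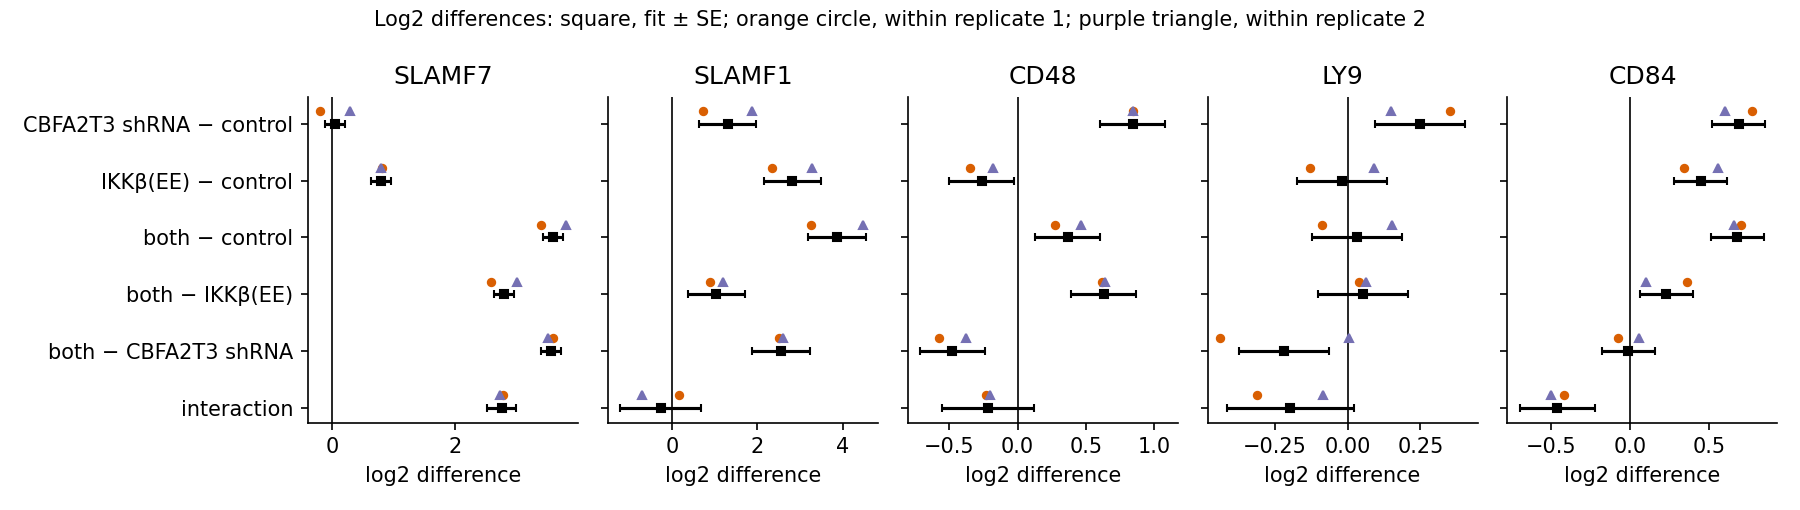
Log2 differences (horizontal axis) of the 5 member probe sets past the floor in the 6 comparisons (rows); squares with bars are the fit ± SE, orange circles the difference within replicate 1 and purple triangles within replicate 2. SLAMF7 has its interaction at 2.76 with both replicates alike, SLAMF1 spreads between replicates, and CD48 is above 0 with the CBFA2T3 shRNA (0.84) and under 0 for both against the CBFA2T3 shRNA (-0.48).

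Counts from the fit over all 24481 probe sets place these values, and nothing is read from them because the members were chosen with the same contrasts known. Calls were made with limma and Benjamini-Hochberg adjustment at an adjusted p under 0.05. With the CBFA2T3 shRNA against control 0 of the 5 tested member probe sets were called, where 0.690% of all tested probe sets were. An unadjusted p under 0.05 was found for 2 of the 5, and for 3977 of all 24481. With IKKβ(EE) 0 of 5 were called (0.229% of all) and 3 had an unadjusted p under 0.05, as had 2390 of all 24481. With both against control 2 were called, SLAMF7 and SLAMF1 (8.43% of all). With both against IKKβ(EE) alone, SLAMF7 was the 1 called (0.143% of all), and the same held with both against the CBFA2T3 shRNA alone (0.862% of all).

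In the interaction, SLAMF7 was 1 of 3 called probe sets (0.0123% of all). The other two were one of HSPA6, a heat-inducible chaperone, at 3.68 ± 0.25, and 200799_at, annotated with several gene symbols, at 3.67 ± 0.33. The median difference of the 5 tested members was 0.69 with the CBFA2T3 shRNA alone, 0.45 with the kinase alone and 0.68 with both, beside medians of 0.01, -0.03 and -0.03 over all tested probe sets. The 3 comparisons share the control arrays.

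Arrays with the same replicate number deviated together, and a fit with that number as a block was made for this reason. With the replicate block 3 members were called higher with the CBFA2T3 shRNA, SLAMF1, CD48 and CD84 (7.72% of all probe sets), and 2 with IKKβ(EE), SLAMF7 and SLAMF1 (3.39%). With both against control 4 were called, all but LY9 (23.7%). With both against IKKβ(EE) alone the 2 were SLAMF7 and CD48 (4.56%), and with both against the CBFA2T3 shRNA alone SLAMF7 and SLAMF1 were called higher and CD48 lower (5.08%). In the interaction SLAMF7 was again 1 of 3 (0.0123%).

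Single arrays decided part of the first set of calls. With both against control SLAMF1 was no longer called without control 1, control 2 or replicate 2 of both. Its difference there ran from 3.06 to 4.65 over all settings tried, and that of CD84 from 0.57 to 0.79. With both against the CBFA2T3 shRNA alone the difference of SLAMF1 ran from 1.76 to 3.34. The share of all probe sets called without an array is not given, so no member counts are shown for these fits. In the interaction SLAMF7 was called without replicate 1 of both and not without any of the other 7 arrays, and its value lay between 2.58 and 2.93.

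The genes whose levels lay nearest to each member were found among 11440 other genes by the root-mean-square difference between log2 profiles over the 8 arrays, each centred on its own mean. Nearest to SLAMF7 were HSPA6 (0.34), DUSP5 (0.38), a phosphatase of the kinase ERK, and IL23A (0.39), the specific subunit of interleukin-23, against a spread of 1.47 for SLAMF7 itself. HSPA6 stood at 4.03 to 5.17 on the first 6 arrays and at 8.42 and 8.27 with both. DUSP5 stood at 3.31 to 4.16 and then at 6.24 and 7.85. These share with SLAMF7 a high level on the arrays with both and only there.

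Nearest to SLAMF1 were CXCL8 (0.24), the neutrophil chemokine interleukin-8, PLAU (0.35), the urokinase gene, and ITGB2 (0.40), the integrin β2 chain, against a spread of 1.60. CXCL8 stood at 5.33 and 6.24 in control, 6.19 and 7.99 with the shRNA, 7.89 and 9.48 with the kinase, and a mean of 9.99 with both, with arrays numbered 2 above those numbered 1 throughout. Nearest to CD48 were LOC728392 (0.147), LSS (0.150), the lanosterol synthase gene of cholesterol synthesis, and BCL6 (0.151), a repressor of germinal centre B cells, against a spread of 0.46. BCL6 was highest with the CBFA2T3 shRNA, at 11.68 and 12.08, and stood at 10.87 and 11.33 with IKKβ(EE). CD84 lay nearest to ARHGEF40 (0.087), HSH2D (0.093) and TCEA2 (0.103), and LY9 to TMPRSS13 (0.067), RPUSD4 (0.070) and FRMD8P1 (0.071). Among the 10 pairs of members the distance ran from 0.30 for LY9 and CD84 and 0.35 for CD48 and CD84, which all vary little, through 0.99 for SLAMF7 and SLAMF1, to 1.65 for SLAMF1 and LY9.

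**Figure D4:**
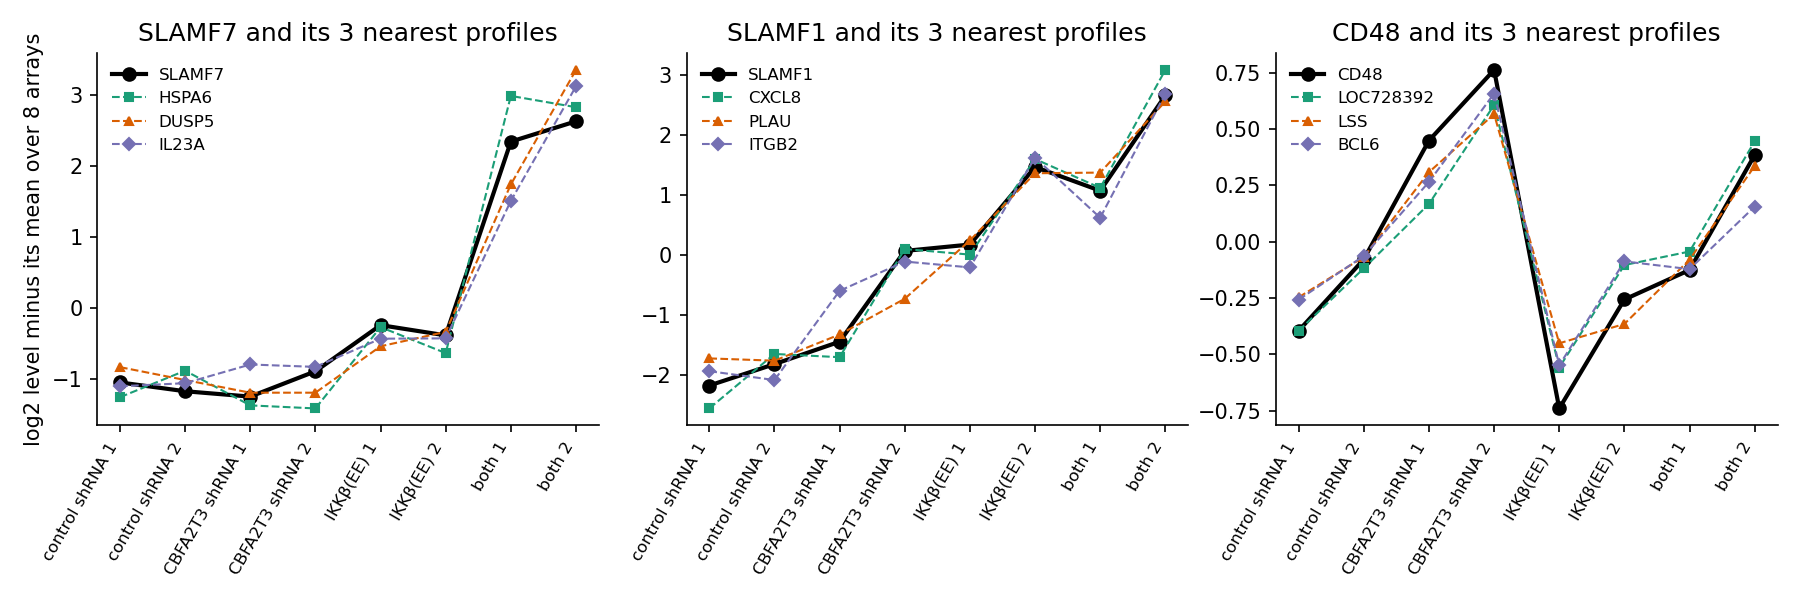
Log2 level minus its mean over the 8 arrays (vertical axis) on each array (horizontal axis, group and replicate) for SLAMF7, SLAMF1 and CD48 (black) and the 3 genes nearest to each (dashed); joining lines guide the eye only. HSPA6, DUSP5 and IL23A are far higher with both than on their other arrays, and a little higher with IKKβ(EE) alone than with the control shRNA. CXCL8, PLAU and ITGB2 climb with SLAMF1, and LOC728392, LSS and BCL6 peak with CD48 on the CBFA2T3 shRNA arrays.

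Relatives of the family outside the set were described next. SLAMF9, the remaining SLAM receptor gene, lay at 3.27 to 4.16 on its 2 probe sets, and CD2, a related receptor of T cells that can bind CD48, at 3.47 to 3.65. CD58, the CD2 ligand on most blood cells, was higher on the 4 arrays with IKKβ(EE) than on the other 4 on 4 of its 5 probe sets. On 222061_at the first IKKβ(EE) array (5.44) lay under control 2 (5.46), with 0 calls by limma with or without the block. On 205173_x_at, the brightest, the difference from control was 0.71 ± 0.29 with IKKβ(EE) (limma adjusted p = 0.495, or 0.0375 with the block). On 216942_s_at CD58 stood at 9.43 and 9.79 with the control shRNA, 9.62 and 9.71 with the CBFA2T3 shRNA, 10.18 and 10.81 with IKKβ(EE), and 10.20 and 10.94 with both. There the difference was 0.89 ± 0.29, the largest of the 4 tested probe sets, with IKKβ(EE) (limma adjusted p = 0.388, or 0.0350 with the replicate block) and 0.96 ± 0.29 with both (limma adjusted p = 0.0840, or 0.00757 with the block). With the CBFA2T3 shRNA it was 0.06 ± 0.29 (limma adjusted p = 0.953).

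The genes flanking the run on chromosome 1 were examined as neighbours of the members. Of the 6 nearest with a probe set, NCSTN, USF1 and ARHGAP30 passed the floor and none was called in any of the 6 comparisons, with or without the block. ARHGAP30 differed by 0.35 ± 0.14 with the CBFA2T3 shRNA (limma adjusted p = 0.273). NHLH1, VANGL2 and ITLN1 lay between 3.39 and 4.81.

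Of 24 genes that act with or downstream of SLAM receptors, 22 had a probe set with 1 symbol and 20 passed the floor. With the CBFA2T3 shRNA 1 of the 20 rose and 1 fell, where 0.690% of all tested probe sets were called. LCK, a Src-family kinase related to FYN, rose from 5.04 and 4.85 to 6.68 and 7.31 (log2 difference 2.05 ± 0.23, limma adjusted p = 0.0280). PIK3C3, a lipid kinase that forms complexes with SLAMF1 and Beclin-1 in macrophages, fell from 11.20 and 11.29 to 10.53 and 10.52 (-0.72 ± 0.11, limma adjusted p = 0.0441). The median difference of the 20 was 0.03, beside 0.01 over all tested probe sets.

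With both against control 3 of the 20 rose and 1 fell, where 8.43% of all tested probe sets were called. LCK (1.80 ± 0.23, limma adjusted p = 0.00838), LYN, a Src-family kinase of B cells (1.25 ± 0.24, limma adjusted p = 0.0263), and CSK, which inhibits Src-family kinases (0.64 ± 0.11, limma adjusted p = 0.0209), were higher. PIK3C3 was lower (-0.71 ± 0.11, limma adjusted p = 0.0139). LYN stood at 7.89 and 8.09 in control, 8.18 and 8.15 with the shRNA, 8.34 and 8.51 with IKKβ(EE), and 8.85 and 9.64 with both. CSK stood at 10.06 and 9.96 in control, 10.60 and 10.56 with the shRNA, 10.11 and 10.18 with IKKβ(EE), and 10.60 and 10.70 with both. The median of the 20 was 0.12, beside -0.03 over all tested probe sets. With IKKβ(EE), with both against IKKβ(EE) alone or the CBFA2T3 shRNA alone, and in the interaction 0 were called by limma. In that order 1, 5, 3 and 0 of the 20 had an unadjusted p under 0.05. Of all 24481 tested probe sets, 2390, 3621, 3711 and 531 had one.

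**Figure D5:**
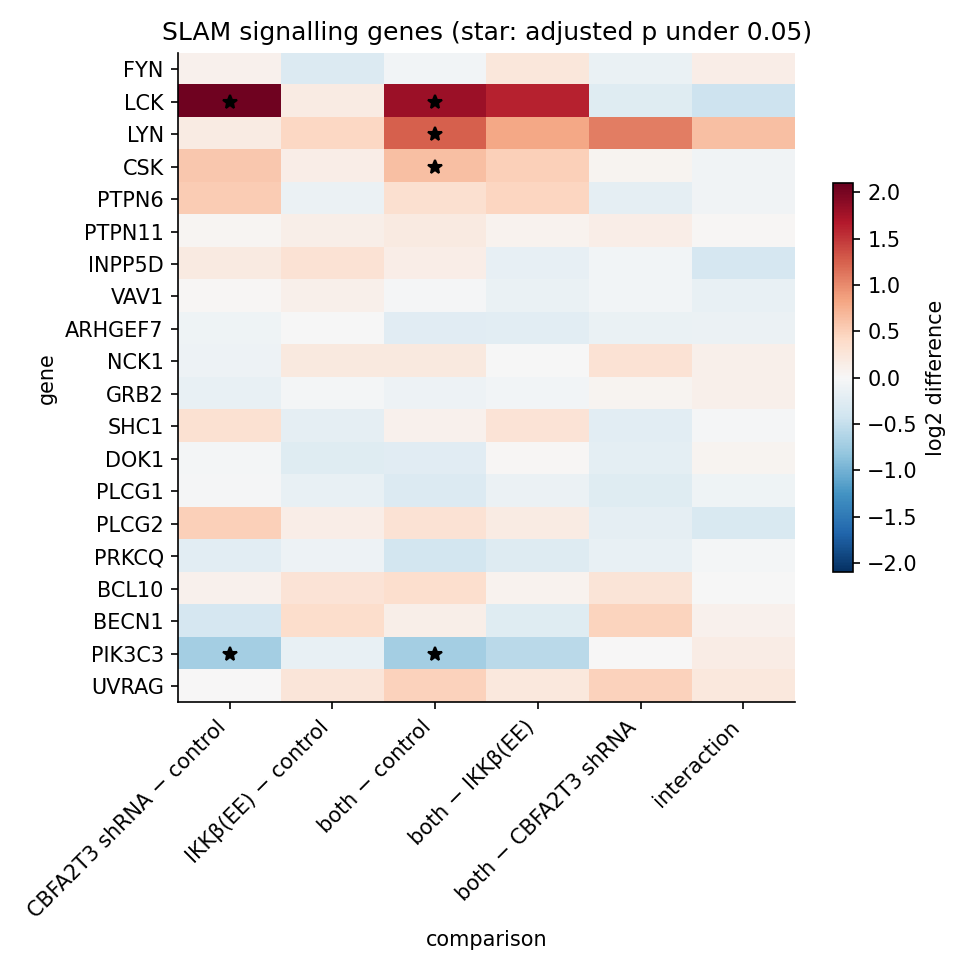
Log2 difference (colour) of 20 SLAM signalling genes (rows) in the 6 comparisons (columns); stars mark an adjusted p under 0.05. LCK is starred with the CBFA2T3 shRNA and with both, LYN and CSK with both, and PIK3C3 is starred lower in the same columns as LCK.

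With the replicate block the signalling genes called were 4 higher and 1 lower with the CBFA2T3 shRNA (7.72% of all probe sets called) and 5 and 1 with both against control (23.7%). They were 2 and 1 with both against IKKβ(EE) (4.56%), and 2 and 0 with both against the CBFA2T3 shRNA (5.08%). PTPN6, which encodes the phosphatase SHP-1, was among them with the CBFA2T3 shRNA (0.53 ± 0.22, limma adjusted p = 0.290, or 0.0258 with the block). It was named after its values were seen, so its p-values are a description. FYN, the kinase that SAP recruits, stood between 8.57 and 9.29 on all arrays and was called in no comparison. The calls made without the block rested in part on single arrays. Those with the CBFA2T3 shRNA were lost without control 1, control 2, shRNA replicate 2 or either IKKβ(EE) array. Those with both against control were lost without control 1 or control 2. The share of all probe sets called without an array is not given, so the counts left are not shown.

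SLAM receptors also mark other cell types, whose genes were followed on the same arrays. In such bulk samples a change in the share of cells and a change in RNA per cell cannot be told apart. Of 8 plasma cell markers 5 passed the floor and 0 were called by limma with both against control (8.43% of all tested probe sets). An unadjusted p under 0.05 was found for 1 of them, and for 6607 of all 24481 tested probe sets. The summed level of the 8 markers, as log2 of the summed intensities, was 11.80 to 12.11 with the control shRNA and 12.01 to 12.10 with both. The brightest marker, XBP1 at 10.89 to 11.31, weighs most in this sum. Of the 5 past the floor 4 were higher with both than with the control shRNA and 1 was lower. SDC1 and TNFRSF17 lay at 3.65 to 4.26 and 2.50 to 2.91. JCHAIN, also under the floor, stood at 2.23 and 2.27 in control and at 2.76 and 3.21 with the CBFA2T3 shRNA. It stood at 2.30 and 2.46 with IKKβ(EE) and at 3.27 on each array with both. PRDM1 stood at 5.49 and 5.68 in control and at 5.72 and 6.31 with both. IRF4, a regulator of plasma cells, was the marker with the largest difference of both from control (1.51 ± 0.39, limma adjusted p = 0.0554, or 0.0104 with the block). It stood at 5.29 and 5.61 in control, 5.53 and 5.52 with the shRNA, 6.16 and 6.58 with IKKβ(EE), and 6.28 and 7.64 with both. IRF4 was named after its values were seen, so its p-values are a description.

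Of 13 T and NK cell markers 5 passed the floor. NKG7, a granule protein, was the 1 called with both (0.89 ± 0.16, limma adjusted p = 0.0209), where 8.43% of all tested probe sets were called. It stood at 4.76 and 4.51 in control, 5.43 and 5.69 with the shRNA, 4.60 and 4.69 with the kinase, and 5.40 and 5.66 with both. The summed level was 9.02 to 9.05 with the control shRNA and 8.83 to 8.92 with both. The brightest marker, CD247, weighs most in this sum, at 7.89 and 8.09 in control and 7.69 and 7.44 with both. Of the 5 past the floor 2 were higher with both than with the control shRNA and 3 were lower. CD3E, GNLY and KLRD1 lay at 3.39 to 4.45 on all arrays. Of 9 monocyte and macrophage markers 2 passed and 0 were called by limma with both (8.43% of all). An unadjusted p under 0.05 was found for 0, and 1 was called higher with the block (23.7% of all). The summed level was 7.21 to 7.26 with the control shRNA, 7.52 to 7.68 with the CBFA2T3 shRNA, 7.29 to 7.83 with IKKβ(EE) and 7.30 to 7.65 with both. ITGAM, an integrin of myeloid cells, stood at 5.32 and 5.61 in control, 5.87 and 6.21 with the shRNA, 5.99 and 6.92 with the kinase, and 5.66 and 6.70 with both. LYZ, the lysozyme gene, was under the floor, at 3.08 or lower in control and 4.29 and 4.55 with the shRNA, and CD14 lay at 3.01 to 3.58. B-precursor markers, 11 of 12 past the floor, had a summed level of 15.34 to 15.40 with the control shRNA and 14.91 to 15.17 with both. All 11 past the floor were lower with both than with the control shRNA. Their median log2 difference was -0.33, beside -0.03 over all tested probe sets. With both against control 0 were called by limma (8.43% of all) and 2 were called lower with the block (23.7% of all). An unadjusted p under 0.05 was found for 4 of the 11, and for 6607 of all 24481 tested probe sets. Whether these shifts had a part in the levels of SLAMF7 and SLAMF1 was not tested.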

How the data were processed

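Total RNA of 8 Reh samples was hybridized to Affymetrix U133 Plus 2.0 arrays. The authors deposited log2 probe set intensities made with RMA, per the submitters' processing notes; the sources used here give no version, chip definition or filter. The values span 1.80 to 14.6, as log2 intensities do. RMA forces arrays to a common distribution, and log2 values near background understate folds. The file holds no scan dates or slides, so neither was tested as a batch.

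Of 54675 probe sets, 62 controls and 30132 under the floor (log2 5 on at least 2 arrays) were left out. Genes were named from GEO's platform annotation (41097 probe sets with 1 symbol, 1801 with several, 11777 with none), of which 41043 matched RefSeq by gene identifier. limma 3.58.1 in R 4.3.3 was fitted to all 24481 tested probe sets with 1 mean per group (4 residual and 3.54 prior degrees of freedom), two-sided, adjusted by Benjamini-Hochberg within each of 6 comparisons. Errors after ± are SE of this fit. With so few arrays precision is limited (median SE of a difference 0.15), and 0.333 is the smallest p that exact permutation could reach for 2 against 2. The p-values measure the spread between arrays the labels call biological duplicates. The fit was checked on data drawn with known differences.

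Replicate numbers were taken to pair the arrays, because what separated replicate 2 from replicate 1 in one group was correlated with the same in every other group (0.34 to 0.58 over probe sets, 6 pairs). The labels do not state a shared day. The members and gene lists were chosen with earlier results of these data known. Named were all members, their relatives and flanking genes, the 3 nearest profiles of each member, and from each list called genes (up to 4 per comparison and direction) and those of highest level. IKBKB's 211027_s_at, PTPN6, FYN, IRF4, PRDM1, LYZ and the dim markers were named after their values were seen. Alternatives were the replicate block, each array left out, the compared groups alone, no floor or one at log2 6, cyclic loess, equal array medians, and moderation with trend and robust settings.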

Additional observations from a re-analysis of the deposited data

Results flagged for a closer look

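SLAMF7 (222838_at) stood out because the effect of the CBFA2T3 shRNA differed between cells with and without IKKβ(EE): the interaction was 2.76 on the log2 scale (2.75503 before rounding), with 2.78 among arrays numbered 1 and 2.73 among those numbered 2. This contrast was known when the family was chosen, so it is a description. Groups held 2 arrays each, too few to look for a single outlying array.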

How the results depend on the processing

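Of 433 recomputed differences of the 5 tested members, 415 moved by less than the spread between replicates, 18 moved more and 0 of those called changed sign. Many of the 415 could not move. A changed floor, the moderation setting, the replicate block and the compared groups alone leave a log2 difference as it was. So does leaving out an array of a group outside the comparison. The 415 are thus no measure of stability. The counts of called member probe sets were 0 with the CBFA2T3 shRNA (0.690% of all), 0 with IKKβ(EE) (0.229%) and 2 with both against control (8.43%). They were 1 in each other comparison (0.143%, 0.862% and 0.0123%). With the replicate block they became 3 (7.72%), 2 (3.39%), 4 (23.7%), 2 (both against IKKβ(EE), 4.56%) and 3 (both against the CBFA2T3 shRNA, 5.08%). The interaction stayed at 1 (0.0123%). With no floor, dim probe sets of SLAMF7, SLAMF1 and CD84 were added for both against control. With cyclic loess CD84 230391_at was added there. With trend and robust moderation SLAMF7 was no longer called in the interaction. Signalling genes called with the CBFA2T3 shRNA (2) became 5 with the block, 1 with no floor and 1 with the compared groups alone. With both against control (4) they became 1 with the compared groups alone. With both against IKKβ(EE) (0) they became 3 with the block and 1 with no floor, and with both against the CBFA2T3 shRNA (0) 2 with the block. The share of all probe sets called is not given for no floor, cyclic loess, trend and robust moderation or the compared groups alone. Nothing is read from calls under those settings.

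Without 1 array the member counts ranged from 1 to 3 for both against control, 1 to 2 for both against the CBFA2T3 shRNA, and 0 to 1 for the interaction. Signalling counts ranged from 0 to 2 with the CBFA2T3 shRNA, 0 to 6 with both against control, 0 to 2 with both against IKKβ(EE) and 0 to 1 with both against the CBFA2T3 shRNA. A group with 1 array left was assumed to vary like the others. The cause of these shifts was not tested. Signal over background limits SLAMF7 in 3 of 4 groups, SLAMF1 on the control arrays and the first CBFA2T3 shRNA array, and the 25 probe sets under the floor.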
